A study of Mus musculus with 8 samples.

Results

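The solute carriers (SLC) described here are membrane transporters with an Slc symbol whose transcripts were well expressed in the liver of KK-Ay mice. They were selected on the symbol and the measured level, so transporters with other symbols were not among them. A gene was kept when its single platform symbol begins with Slc and a digit and when its brightest probe set averaged 9 or more on the log2 scale over the 8 arrays. Of 347 genes measured that match the naming rule, 74 were kept, 263 lay below that level and 10 others at or above it (Slc10a1, Slc16a1, Slc25a1, Slc25a15, Slc27a2, Slc27a5, Slc30a1, Slc30a10, Slc39a14 and Slc40a1) were left out by name. The level was used to choose the genes and is a description only, whereas the rule uses no contrast between the diets. KK-Ay mice, a genetically obese model of type 2 diabetes, were males of 14 weeks, and livers of 4 mice on the control AIN93G diet (CD) and 4 on the same diet with 1 g/kg of persimmon peel (PP) extract (PD) had been taken after 8 weeks of feeding. Each array held RNA of 1 mouse, and the mice had been picked from larger groups because their plasma total ketone bodies were near the group average, so the arrays need not show the full spread of a group.

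Solute carriers move nutrients, ions, vitamins, metals and drugs across the membranes of a cell and of its organelles. In the hepatocyte, carriers of the sinusoidal membrane exchange glucose, amino acids and organic ions with blood, those of the canalicular membrane face the bile, and those of the inner mitochondrial membrane connect the urea cycle, gluconeogenesis and fatty acid oxidation with the cytosol. Other families load the endoplasmic reticulum and the Golgi with nucleotide sugars or supply metals to enzymes.

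Very few of these carriers were called different between the diets. By the rank product, which ranks the PD to CD ratio of every probe set in each of the 16 pairs of arrays, 2 of 74 carriers fell in PD mice at a false discovery rate (FDR) under 0.1 and 0 rose. The pair that fell was Slc25a51, the carrier that brings NAD+ into mitochondria, and Slc41a2, a magnesium transporter. They are 2.7% of the carriers. Of all 45037 probe sets, 0.258% were called lower and 0.202% higher, and of probe sets as bright as the carriers, with a mean of 9 or more, 0.816% were called lower and 0.59% higher. Both calls were lost when dim probe sets were removed before the test or at an FDR under 0.05, and that of Slc25a51 also when the gene was averaged over its probe sets (-0.23). A count of 2 is too small to set these genes apart from other bright probe sets. Both probe sets also stand in the study's list of downregulated genes, which was made from the same arrays by the same kind of test, so their calls are not independent evidence of the direction. By limma, which sets each difference against the spread between mice, 0 carriers and 0 of all probe sets passed at an adjusted p under 0.1 (0% in each direction, also among bright probe sets), and the lowest adjusted p over all probe sets was 0.998. At an unadjusted p under 0.05, limma gave 8 carriers, 4 higher and 4 lower, or 5.41% in each direction. The same share was 1.69% higher and 1.95% lower over all probe sets, and 3.13% and 2.6% over the bright ones. In whole liver, fewer cells of a type and less RNA per cell cannot be told apart.

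Taken by direction alone, 30 carriers had a higher and 44 a lower mean in PD mice. The lower ones made up 59.5%, against 52.9% of all probe sets and 44.3% of the bright ones, and the higher ones 40.5%, against 47.1% and 55.7%. Of the 34 carriers whose values are given by mouse, 10 took the other sign when some single mouse was left out, and none of these was called. The differences were small. Over the 74 carriers the median was -0.01 on the log2 scale, beside -0.00 over all probe sets and 0.01 over the bright ones, and the differences ran from -0.35 (Slc41a2) to 0.28 (Slc6a9). A difference under 0.15 in size was found for 65 carriers (87.8%, against 90.6% of bright probe sets), and a difference of 0.25 or more for 3. The 95% interval of the difference, from the limma fit and not adjusted for the number of genes, lay wholly within 0.3 of 0 for 53 carriers. Its half-width had a median of 0.16 and reached 0.55 for Slc3a1, so for the most variable carriers a sizeable change in either direction was not detectable with 4 mice a diet.

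**Figure D1:**
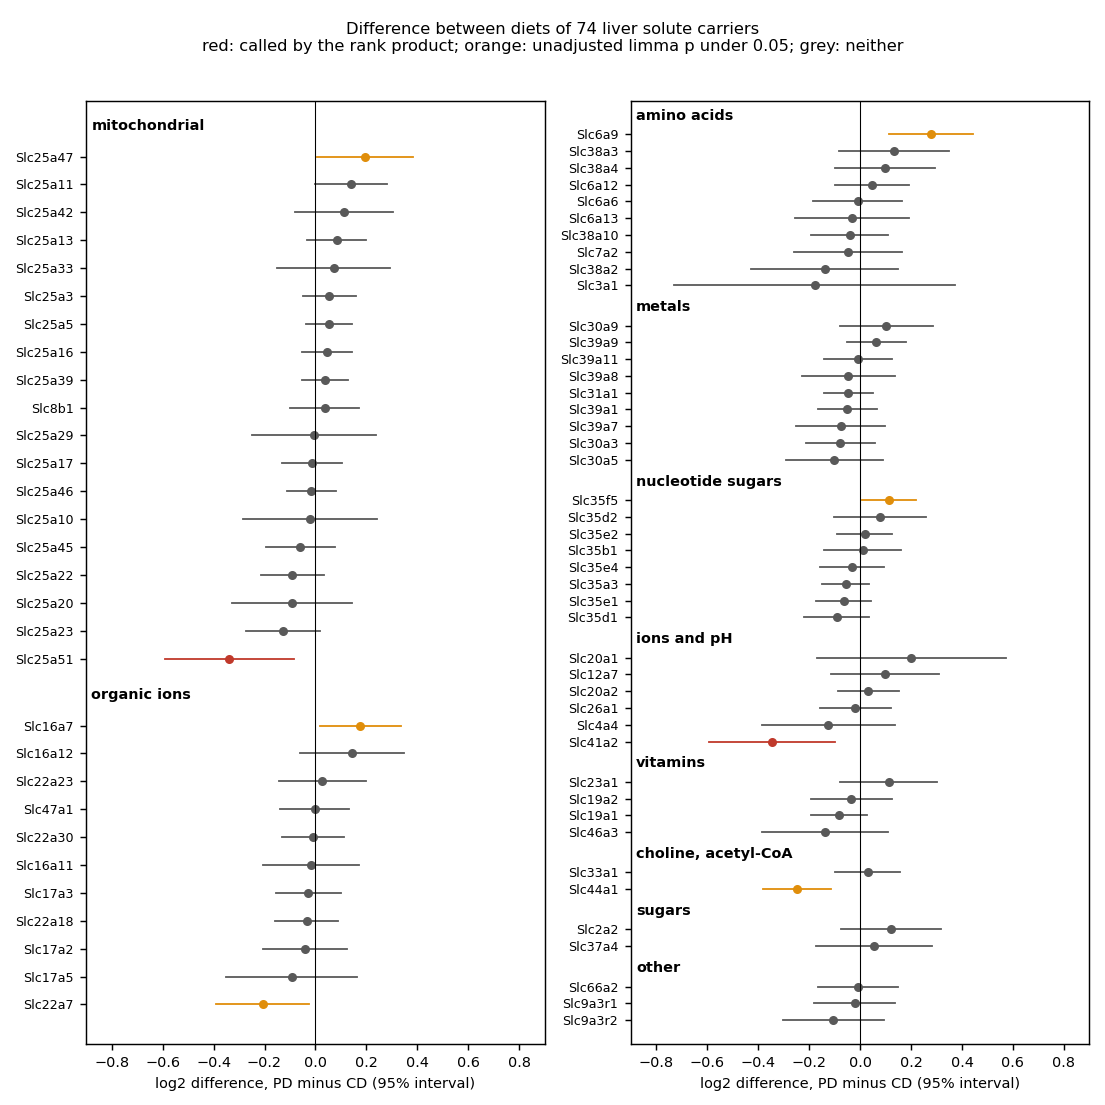
Log2 difference (PD minus CD, x axis) of each of the 74 solute carriers, in rows grouped by substrate family. Points are differences of the means of 4 mice a diet and lines the 95% interval from limma, with red for the 2 carriers called by the rank product, orange for the other 6 with an unadjusted limma p under 0.05 and grey for the 66 others; all grey intervals include 0.

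The liver identity of the samples was checked on marker genes. Of 8 hepatocyte markers listed 7 were measured, and their mean level was 13.87 to 13.97 in CD and 13.77 to 13.91 in PD mice. Of 5 adipocyte markers listed 3 were measured, averaging 6.40 to 6.54 over the 8 mice. Of 6 cholangiocyte markers 5 were measured, at 6.68 to 6.75. Other cell types stood higher, with 3 of 5 erythroid markers at 8.42 to 8.77 and 2 of 5 exocrine pancreas markers at 8.37 to 8.70. The erythroid mean rested on Alas2 (11.41), with Hba-a1 at 7.25 and Slc4a1 at 7.37. The pancreas markers were Cela1 (9.21) and Cpa1 (7.91). The Kupffer cell markers averaged 8.48 to 8.95 and the sinusoidal endothelium markers 8.68 to 8.94. Of the hepatocyte markers 1, the tyrosine aminotransferase Tat, was called lower in PD mice (-0.44). Of 7 Kupffer cell, 6 sinusoidal endothelium, 3 erythroid and 2 exocrine pancreas markers 0 were called, though all 3 erythroid ones had the lower mean in PD mice (median -0.04). Of 7 stellate cell and fibroblast markers, 5 had the higher mean in PD mice (median difference 0.17), and 1, the collagen Col3a1, was called higher. Tat and Col3a1 also stand in the study's lists. Of all probe sets, 0.258% were called lower and 0.202% higher. The mean level of the stellate cell and fibroblast markers spanned 7.97 to 8.32 in CD and 8.23 to 8.31 in PD mice. The diets thus overlapped, and the part of these markers in the carriers' differences was not tested. The arrays had medians of 7.09 to 7.16 and correlated with each other at 0.991 to 0.996.

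The promoters of 3 carriers are shown because their genes differ in the direction of the difference between diets and because they differ in base composition. Slc41a2 was called lower, Slc44a1 had the lowest unadjusted limma p, and Slc25a47 encodes a mitochondrial carrier found mainly in liver. They were chosen after the values were seen, and their contrast in composition was a reason for the choice and not a result. Slc44a1 has 2 starts, and the window of 1 is shown. Each sequence is the RefSeq window (GRCm38.p6) of 250 bases before and 50 after the start of transcription, written 5′ to 3′ on the strand of the gene, with GC boxes (GGGCGG, either strand) in capitals.
Slc41a2 (chr10:83337768-83338067, minus strand): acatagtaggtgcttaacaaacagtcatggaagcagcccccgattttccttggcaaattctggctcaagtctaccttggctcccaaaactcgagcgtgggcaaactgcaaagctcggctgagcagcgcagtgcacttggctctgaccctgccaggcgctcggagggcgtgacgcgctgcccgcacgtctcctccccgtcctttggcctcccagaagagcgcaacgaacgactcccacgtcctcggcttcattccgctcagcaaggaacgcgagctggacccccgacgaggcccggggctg
Slc44a1 (chr4:53440163-53440462, plus strand): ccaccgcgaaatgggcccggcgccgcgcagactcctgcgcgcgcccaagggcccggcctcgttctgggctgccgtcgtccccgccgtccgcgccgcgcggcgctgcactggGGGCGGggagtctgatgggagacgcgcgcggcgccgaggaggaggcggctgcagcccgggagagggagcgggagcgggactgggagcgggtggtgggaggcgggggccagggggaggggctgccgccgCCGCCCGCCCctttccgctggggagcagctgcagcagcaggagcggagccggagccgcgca
Slc25a47 (chr12:108850879-108851178, plus strand): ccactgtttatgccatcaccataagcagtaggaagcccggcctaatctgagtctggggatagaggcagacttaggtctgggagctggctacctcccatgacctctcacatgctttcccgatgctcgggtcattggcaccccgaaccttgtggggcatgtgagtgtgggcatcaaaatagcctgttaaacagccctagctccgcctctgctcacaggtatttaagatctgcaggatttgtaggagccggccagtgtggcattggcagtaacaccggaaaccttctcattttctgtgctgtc
The Slc44a1 window held 43 CpG pairs at 79.7% GC and GC boxes beginning at bases 112, 240 and 244, of which the latter pair overlap. The Slc41a2 window held 24 CpG pairs at 61.7% GC, and that of Slc25a47 held 7 at 53.3%. Neither of these contained any of the 6 motifs searched.

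Promoter windows were at hand for 60 of the 74 carriers, 86 windows in all because some genes have several starts. Their median CpG count was 15, against 7 over all 32851 windows of the same length, and their median GC content 59.3% against 52.7%. The GC box was found in 59.3% of the carriers' windows and 35.7% of all windows. The E-box CACGTG was found in 14.0% against 7.15%, in 11 carrier genes that include Slc25a13, Slc33a1 and Slc39a8. The letters TATAAA were found in 6.98% against 13.6%, and the D-box TTATGTAA in 1.16% against 0.938%. The CRE (TGACGTCA) and the DR1 element, a direct repeat bound by nuclear receptors, were in 0 of the carriers' windows, against 1.79% and 0.0396% of all windows. All motifs were searched on both strands, and a match or its lack is a description of letters and not of binding. Whether these shares go with a high level in liver was not tested. Slc25a51, Slc22a7 and Slc16a7 had no entry.

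Mitochondrial carriers numbered 19, more than any other group, of which 10 were higher and 9 lower in PD mice (median 0.04). Slc25a51 was the 1 called. Its level was 10.38, 10.63, 10.44 and 10.18 in CD mice 1 to 4 and 10.22, 10.04, 10.25 and 9.77 in PD mice 1 to 4. CD mouse 4 lay below PD mice 1 and 3, so the diets overlapped, and PD mouse 4 was far below the rest. The means were 10.41 ± 0.19 in CD and 10.07 ± 0.22 in PD mice (SD, n = 4 each), a difference of -0.34 (SE 0.14) (FDR 0.094, exact permutation test, two-sided p = 0.0857, smallest possible 0.0286). Another pair of probe sets of the gene, dimmer than the first, differed by -0.19 and -0.17 in the same mice and were not called (FDR 0.62 and 0.714). Their unadjusted limma p was 0.0257 and 0.00725, with overlapping diets, beside 0.0134 for the first. The call was lost when CD mouse 1, 2 or 3 or PD mouse 2 or 4 was left out, with differences of -0.35, -0.26, -0.33, -0.33 and -0.24 in that order.

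At the other end of the family stood Slc25a47, a carrier of uncertain substrate found mainly in liver. Its level was 12.29, 12.47, 12.42 and 12.08 in CD mice 1 to 4 and 12.39, 12.61, 12.59 and 12.45 in PD mice 1 to 4. The highest values were those of PD mice 2 and 3 and the lowest that of CD mouse 4, and the remaining mice were mixed. The difference was 0.20 (SE 0.10), with a 95% interval of 0.01 to 0.38, and was not called (FDR 0.553). Without CD mouse 4 it was 0.12. Next to it came Slc25a11, the oxoglutarate/malate exchanger of the malate-aspartate shuttle (0.14), Slc25a42, a coenzyme A carrier (0.11), and Slc25a13, the aspartate/glutamate carrier citrin (0.08), none of them called. On the lower side, Slc25a23, an ATP-Mg/phosphate carrier, differed by -0.13, Slc25a20, the carnitine-acylcarnitine carrier of fatty acid oxidation, by -0.09 and Slc25a22, a glutamate carrier, by -0.09.

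The brightest mitochondrial probe sets hardly varied. Slc25a39, which imports glutathione, was at 13.06, 13.05, 13.08 and 13.07 in CD mice 1 to 4 and 13.07, 13.08, 13.11 and 13.15 in PD mice 1 to 4. All 8 mice lay within 0.10 of each other, and this gene had the smallest SD within diets of all carriers (0.03). Slc25a3, the phosphate carrier that feeds ATP synthase, was at 12.81, 12.84, 12.86 and 12.80 in CD mice 1 to 4 and 12.84, 12.98, 12.86 and 12.84 in PD mice 1 to 4. Only PD mouse 2 stood above the others. Slc25a5, an ADP/ATP translocase, was at 12.79, 12.72, 12.74 and 12.79 in CD mice 1 to 4 and 12.78, 12.80, 12.84 and 12.83 in PD mice 1 to 4. Its diets overlapped and its difference was 0.05. On another pair of its probe sets, with differences of 0.07 each, all PD mice lay above all CD mice, and neither was called. The probe sets of Slc25a39 and Slc25a5 are of a type (x_at) that can detect related transcripts, as are those of Slc26a1 and Slc35e4. Slc25a46, an outer membrane protein of mitochondrial dynamics, was at 9.69, 9.76, 9.66 and 9.73 in CD mice 1 to 4 and 9.72, 9.68, 9.67 and 9.71 in PD mice 1 to 4. Its SD within diets was 0.04 and its difference -0.02.

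Slc25a10 showed the opposite behaviour. This dicarboxylate carrier exchanges malate and succinate for phosphate and was at 11.40, 11.58, 11.73 and 11.69 in CD mice 1 to 4 and 11.59, 11.22, 11.66 and 11.84 in PD mice 1 to 4. PD mouse 2 was the lowest and PD mouse 4 the highest of all 8 mice, and the difference between diets was -0.02 with an SD within diets of 0.21. Without PD mouse 2 it was 0.10. Slc25a20 had the same pair of extremes, at 10.92 in PD mouse 2 and 11.51 in PD mouse 4. The remaining family members (Slc25a16, Slc25a33, Slc8b1, the mitochondrial sodium/calcium exchanger, Slc25a29, Slc25a17 and Slc25a45) differed by -0.06 to 0.07. Slc25a17 carries the family name but is a peroxisomal transporter.

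Among 11 carriers of organic anions, cations and monocarboxylates, 3 were higher and 8 lower (median -0.02), and 0 were called. Slc22a7, an organic anion transporter of the sinusoidal membrane (OAT2), was at 11.23, 11.24, 11.32 and 11.60 in CD mice 1 to 4 and 11.16, 11.20, 11.18 and 11.01 in PD mice 1 to 4. All PD mice lay below all CD mice, and CD mouse 4 stood well above the rest. Groups that do not overlap, lower in PD, were found for 2 carriers (2.7%) against 1.02% of all probe sets and 0.92% of bright ones, and higher in PD for 0 against 1.06% and 1.74%. The means of Slc22a7 were 11.35 ± 0.18 in CD and 11.14 ± 0.09 in PD mice (SD, n = 4 each), the difference -0.21 (SE 0.10), the FDR 0.557 and the exact permutation p (two-sided) 0.0286, the smallest that 4 against 4 mice can give. Without CD mouse 4 the difference was -0.12.

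Both Slc16a7 and Slc16a12, of the monocarboxylate transporter family, had a higher mean in PD mice. Slc16a7 (MCT2), a high-affinity carrier of pyruvate and lactate, was at 9.65, 9.80, 9.78 and 9.54 in CD mice 1 to 4 and 9.93, 9.79, 9.77 and 9.999 in PD mice 1 to 4. PD mice 1 and 4 were above all CD mice while PD mice 2 and 3 were within their range, and the difference was 0.18 (SE 0.08) (FDR 0.676). Slc16a12, a creatine transporter, was at 9.81, 10.12, 9.97 and 9.89 in CD mice 1 to 4 and 9.89, 10.29, 9.996 and 10.19 in PD mice 1 to 4. The diets overlapped and the difference of 0.14 was below the SD within diets (0.16). Slc47a1 (MATE1), which exports organic cations into bile, was at 11.10, 11.22, 11.09 and 11.18 in CD mice 1 to 4 and 11.23, 10.99, 11.22 and 11.13 in PD mice 1 to 4. Its difference was -0.00 with a 95% interval of -0.14 to 0.13. Slc22a30, Slc22a18, Slc22a23, Slc17a2, Slc17a3, Slc16a11 and Slc17a5, the lysosomal sialic acid exporter, differed by -0.09 to 0.03.

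**Figure D2:**
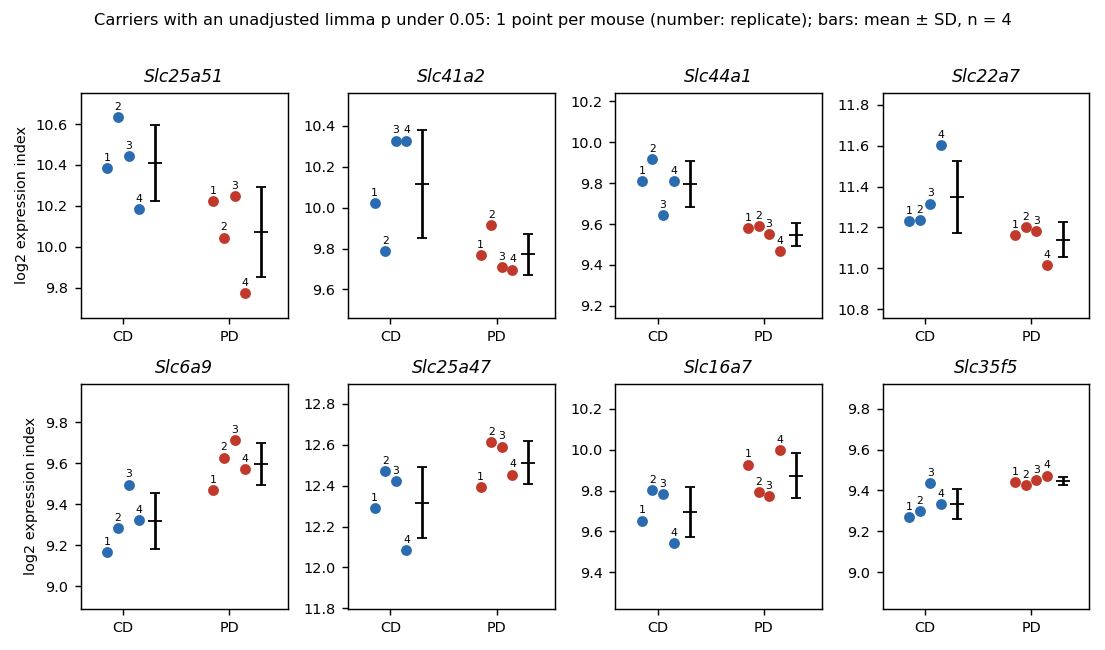
Log2 expression index (y axis, each panel spanning the same 1.1 units) of the 8 solute carriers with an unadjusted limma p under 0.05, by diet (x axis). Each point is 1 mouse with its replicate number, and bars are the mean ± SD of 4 mice; the diets do not overlap for Slc44a1 and Slc22a7 and overlap for the other 6.

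The 10 carriers of amino acids and their derivatives were split into 4 higher and 6 lower (median -0.02), and 0 were called. Slc6a9 (GlyT1), a sodium-coupled glycine transporter, had the largest difference upward of all 74 carriers. Its level was 9.16, 9.28, 9.50 and 9.32 in CD mice 1 to 4 and 9.47, 9.63, 9.71 and 9.57 in PD mice 1 to 4. Only CD mouse 3 overlapped the PD mice, lying above PD mouse 1. The means were 9.32 ± 0.14 in CD and 9.59 ± 0.10 in PD mice (SD, n = 4 each), a difference of 0.28 (SE 0.09) (FDR 0.162, exact permutation test, two-sided p = 0.0571). It was called, at 0.34, when CD mouse 3 was left out, and a dimmer probe set of the gene differed by 0.05.

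The brightest amino acid carriers were the sodium-coupled Slc38a3 (SNAT3), which moves glutamine in and out of hepatocytes, and Slc38a4 (SNAT4). Slc38a3 was at 12.26, 12.63, 12.52 and 12.68 in CD mice 1 to 4 and 12.46, 12.78, 12.78 and 12.60 in PD mice 1 to 4. CD mouse 1 was the lowest and PD mice 2 and 3 the highest, and the difference of 0.13 was within the SD (0.17). Slc38a4 was at 12.31, 12.71, 12.43 and 12.50 in CD mice 1 to 4 and 12.53, 12.78, 12.54 and 12.48 in PD mice 1 to 4. CD mouse 1 was again the lowest and PD mouse 2 the highest (difference 0.10). With 1 mouse left out at a time the difference was 0.03 to 0.17, and another bright probe set of the gene differed by -0.04. Slc38a2 (SNAT2), a general neutral amino acid transporter, was at 10.58, 10.79, 10.59 and 10.31 in CD mice 1 to 4 and 10.32, 10.83, 10.27 and 10.30 in PD mice 1 to 4. It was high in CD mouse 2 and PD mouse 2, one of each diet, and differed by -0.14 with an SD of 0.23. Without PD mouse 2 the difference was -0.27 and without CD mouse 2 it was -0.06.

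Slc3a1, the heavy subunit of a cystine and basic amino acid transporter, was the most variable carrier of all. It was at 9.17, 9.12, 9.01 and 10.08 in CD mice 1 to 4 and 9.72, 9.29, 8.77 and 8.89 in PD mice 1 to 4. CD mouse 4 and PD mouse 1 were high and PD mice 3 and 4 low, so the SD within diets was 0.46 and the difference of -0.18 had an interval of -0.73 to 0.37. It was 0.07 without CD mouse 4 and -0.36 without PD mouse 1, so its direction rested on single mice. The cationic amino acid transporter Slc7a2 (CAT2), the taurine transporter Slc6a6, the betaine and GABA transporters Slc6a12 and Slc6a13, and Slc38a10 differed by -0.05 to 0.05.

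Metal carriers numbered 9, with 2 higher and 7 lower in PD mice (median -0.05), and at the probe set used 0 were called or had an unadjusted p under 0.05. Slc39a1 (ZIP1), a zinc importer, was at 10.63, 10.70, 10.81 and 10.79 in CD mice 1 to 4 and 10.71, 10.71, 10.70 and 10.62 in PD mice 1 to 4. CD mice 3 and 4 were highest and PD mouse 4 lowest. Slc31a1 (CTR1), the copper importer, was at 10.37, 10.41, 10.46 and 10.36 in CD mice 1 to 4 and 10.34, 10.35, 10.40 and 10.32 in PD mice 1 to 4. Its SD within diets was 0.04, among the 5 smallest of all carriers, and the interval of its difference was -0.14 to 0.05. A second bright probe set of the gene differed by -0.11, with overlapping diets, and had an unadjusted p under 0.05. The rest, zinc and manganese importers of the Slc39 family (Slc39a7, Slc39a8, Slc39a9 and Slc39a11) and zinc exporters of the Slc30 family (Slc30a3, Slc30a5 and Slc30a9), differed by -0.10 to 0.10.

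The Slc35 family, which is known for carrying nucleotide sugars into the endoplasmic reticulum and Golgi, gave 8 genes, 4 higher and 4 lower (median -0.01), and 0 called. Slc35d1, which brings UDP-glucuronic acid into the endoplasmic reticulum, was at 10.53, 10.62, 10.50 and 10.73 in CD mice 1 to 4 and 10.46, 10.47, 10.50 and 10.58 in PD mice 1 to 4. The PD mice were close together and the difference was -0.09 with an interval of -0.22 to 0.04. Slc35b1, an ATP/ADP exchanger of the endoplasmic reticulum, was at 10.43, 10.25, 10.57 and 10.33 in CD mice 1 to 4 and 10.31, 10.45, 10.41 and 10.45 in PD mice 1 to 4. CD mouse 3 was the highest and CD mouse 2 the lowest of all 8 mice, and the means of the diets were 0.01 apart.

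Slc35f5, a member of the family without a settled substrate, was at 9.27, 9.30, 9.43 and 9.33 in CD mice 1 to 4 and 9.44, 9.43, 9.45 and 9.47 in PD mice 1 to 4. CD mice 1, 2 and 4 were below all PD mice and CD mouse 3 was level with them, and the difference of 0.11 (SE 0.04) was small beside that of the other carriers with a low unadjusted p. The rank product, which orders genes by fold, did not call it. Slc35a3, the UDP-N-acetylglucosamine carrier, was at 10.11, 10.14, 10.11 and 10.05 in CD mice 1 to 4 and 10.03, 10.08, 10.03 and 10.05 in PD mice 1 to 4. Its SD within diets (0.03) was among the smallest, and its difference was -0.06. Slc35d2, Slc35e1, Slc35e2 and Slc35e4 differed by -0.07 to 0.08.

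Of 6 carriers of inorganic ions, 3 were higher and 3 lower (median 0.01), and Slc41a2 was the 1 called. It had the largest difference of all 74 carriers. Its level was 10.02, 9.79, 10.33 and 10.33 in CD mice 1 to 4 and 9.77, 9.91, 9.71 and 9.70 in PD mice 1 to 4. CD mice 3 and 4 were high, whereas CD mouse 2 lay between PD mice 1 and 2. The means were 10.12 ± 0.26 in CD and 9.77 ± 0.10 in PD mice (SD, n = 4 each), a difference of -0.35 (SE 0.14) (FDR 0.087, exact permutation test, two-sided p = 0.0571). The call was lost without CD mouse 1, 3 or 4 or PD mouse 3 or 4, at differences of -0.38, -0.28, -0.28, -0.32 and -0.32. The gene had no other probe set.

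Slc20a1 (PiT1), a sodium-phosphate cotransporter, was at 8.93, 9.53, 8.99 and 8.98 in CD mice 1 to 4 and 8.99, 9.66, 9.52 and 9.07 in PD mice 1 to 4. CD mouse 2 and PD mice 2 and 3 stood above the other 5 mice, and the difference of 0.20 was below the SD within diets (0.31). It was 0.34 without CD mouse 2 and 0.09 without PD mouse 2. Slc20a2 (PiT2), its close relative, differed by 0.03. Slc4a4, a sodium-bicarbonate cotransporter, was at 10.06, 10.32, 10.13 and 9.81 in CD mice 1 to 4 and 10.16, 9.75, 9.80 and 10.10 in PD mice 1 to 4. High and low mice were found on both diets (difference -0.13, from -0.22 to -0.05 without 1 mouse). Slc26a1, a sulfate and oxalate exchanger, was at 10.998, 10.93, 10.87 and 11.05 in CD mice 1 to 4 and 10.96, 10.95, 11.06 and 10.80 in PD mice 1 to 4. Its difference was -0.02, and that of the potassium-chloride cotransporter Slc12a7 was 0.10.

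The 4 vitamin and cofactor carriers gave 1 higher and 3 lower (median -0.06), and 0 were called. Slc23a1, the sodium-dependent vitamin C transporter of hepatocytes, was at 10.41, 10.20, 10.45 and 10.44 in CD mice 1 to 4 and 10.30, 10.66, 10.60 and 10.39 in PD mice 1 to 4. PD mice 2 and 3 were the highest and CD mouse 2 the lowest, with a difference of 0.11. Slc19a2, a thiamine transporter, was at 10.46, 10.45, 10.61 and 10.55 in CD mice 1 to 4 and 10.70, 10.40, 10.42 and 10.42 in PD mice 1 to 4. PD mouse 1 was the highest of all mice while the other 3 PD mice were the lowest, and the means differed by -0.03. Slc46a3, a lysosomal carrier, differed by -0.14 and Slc19a1, the reduced folate carrier, by -0.08.

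Slc44a1 and Slc33a1 made up the carriers of lipid precursors. Slc44a1 (CTL1), a choline transporter, was at 9.81, 9.92, 9.64 and 9.81 in CD mice 1 to 4 and 9.58, 9.59, 9.55 and 9.47 in PD mice 1 to 4. All PD mice lay below all CD mice, and the PD mice were close together. The means were 9.79 ± 0.11 in CD and 9.55 ± 0.06 in PD mice (SD, n = 4 each), and the difference of -0.25 (SE 0.06) had an interval of -0.38 to -0.11 and the smallest exact permutation p that the design allows (0.0286, two-sided). The rank product did not call it (FDR 0.272). The other 3 probe sets of the gene, all dimmer, differed by 0.00, -0.02 and -0.06, so the difference was seen with 1 probe set of 4. Slc33a1, which takes acetyl-CoA into the endoplasmic reticulum, was at 10.66, 10.63, 10.75 and 10.68 in CD mice 1 to 4 and 10.62, 10.86, 10.70 and 10.66 in PD mice 1 to 4. Its difference was 0.03.

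Both sugar carriers handle glucose or its phosphate. Slc2a2 (GLUT2), the glucose transporter of the sinusoidal membrane, was at 12.28, 12.44, 12.32 and 12.09 in CD mice 1 to 4 and 12.22, 12.59, 12.45 and 12.35 in PD mice 1 to 4. Slc37a4, which brings glucose 6-phosphate to glucose 6-phosphatase in the endoplasmic reticulum, was at 11.36, 11.50, 11.42 and 11.29 in CD mice 1 to 4 and 11.17, 11.72, 11.55 and 11.34 in PD mice 1 to 4. For both, PD mice 2 and 3 were the highest, while CD mouse 4 and PD mouse 1 were the lowest. Their differences were 0.12 and 0.06, within SDs of 0.15 and 0.18, and neither was called.

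Slc9a3r1, Slc9a3r2 and Slc66a2 fitted no substrate family, and all 3 had a lower mean in PD mice, with differences of -0.11 to -0.01 and 0 called. Slc9a3r1 and Slc9a3r2 match the naming rule but encode scaffold proteins that bind transporters and do not carry solutes. Slc9a3r1 was at 11.08, 11.18, 11.17 and 11.36 in CD mice 1 to 4 and 11.01, 11.25, 11.25 and 11.19 in PD mice 1 to 4. CD mouse 4 was the highest and PD mouse 1 the lowest, with a difference of -0.02. Slc66a2 was at 10.69, 10.55, 10.77 and 10.91 in CD mice 1 to 4 and 10.79, 10.66, 10.75 and 10.69 in PD mice 1 to 4. CD mice 2 and 4 were its extremes, and the difference was -0.01.

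**Figure D3:**
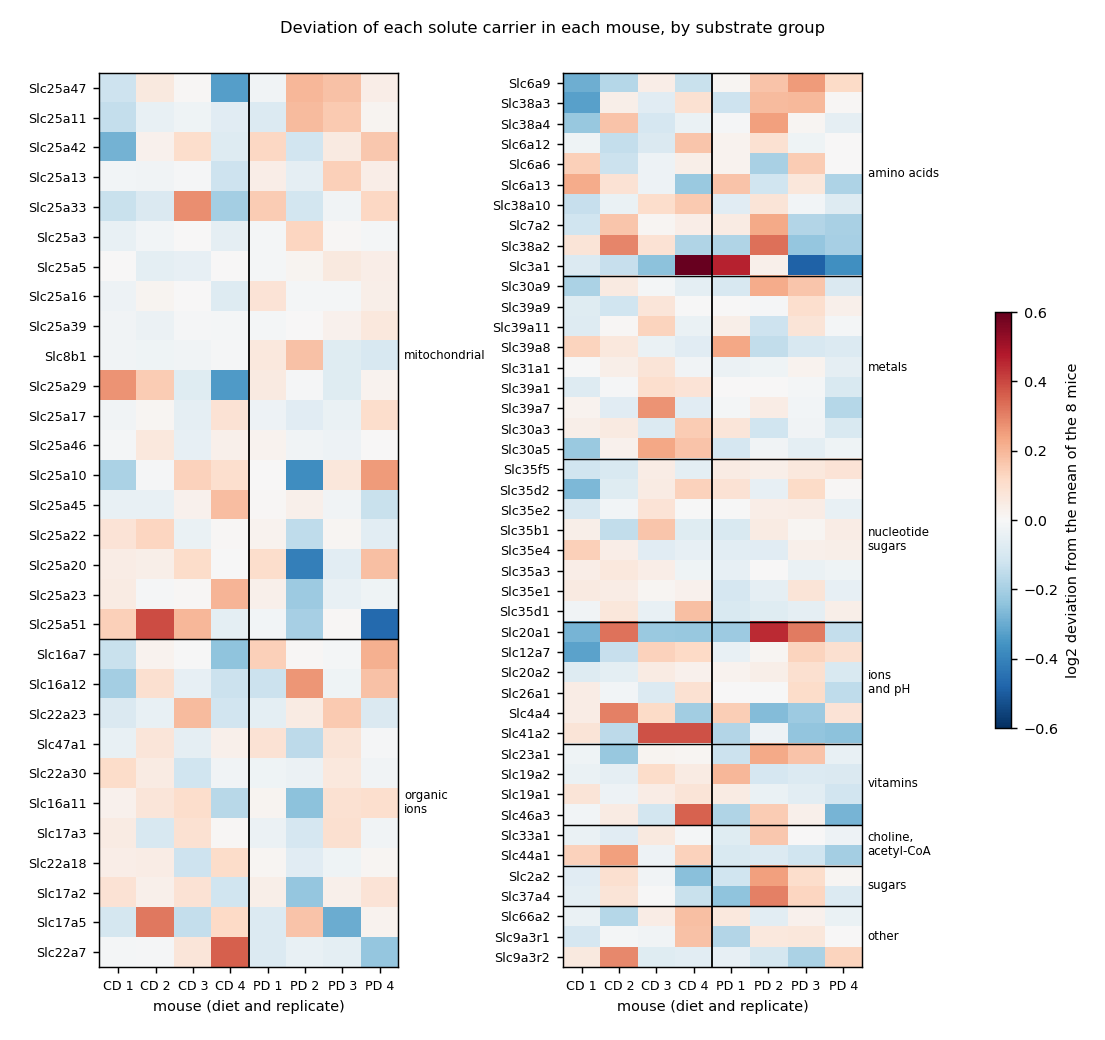
Log2 deviation of each solute carrier (rows, by substrate family) from its mean over the 8 mice, in each mouse (columns, CD 1 to 4 and PD 1 to 4, divided by the vertical line). Red is above and blue below the mean, on a scale of ±0.6 that Slc3a1 in CD mouse 4 exceeds; single mice, such as PD 2 in Slc25a10 and Slc25a20, stand out from both diets.

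The median SD within diets was 0.12 for the carriers and 0.09 for all bright probe sets. Among the carriers it was under 0.1 for 31 and over 0.2 for 7, and ran from 0.03 (Slc25a39) to 0.46 (Slc3a1). PD mouse 2 was an extreme more often than the others, with the highest value of 14 and the lowest of 15 carriers. This was 18.9% and 20.3%, near the 22.7% and 20.2% that the same mouse had among all bright probe sets. CD mouse 4 was highest for 14 (18.9%, against 15.2% of bright probe sets) and lowest for 10 (13.5% against 16.6%). CD mouse 1 was lowest for 14 (18.9% against 17.3%) and PD mouse 4 lowest for 14 (18.9% against 13.4%). CD mouse 3 was highest for 13 (17.6% against 11.9%). The median size of a difference between diets was 0.06, beside 0.05 for all bright probe sets, and lay below the median SD. The SD is that of single mice and exceeds the SE of a difference of means, so a difference below it is not shown absent.

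**Figure D4:**
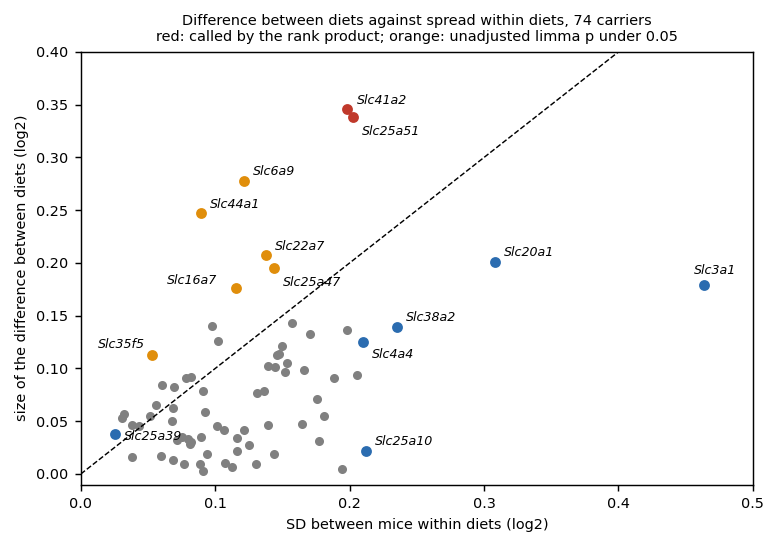
Size of the log2 difference between diets (y axis) against the SD between mice within diets (x axis) for the 74 solute carriers, 1 point each, with the dashed line where both are equal. The 2 red carriers called by the rank product and the 6 orange ones with an unadjusted limma p under 0.05 lie above the line, whereas Slc3a1 and Slc20a1, the most variable carriers (blue for the named ones), lie below it.

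Near the threshold, the lowest levels kept were 9.02 (Slc25a22), 9.03 (Slc9a3r2) and 9.03 (Slc39a9), and the highest levels not kept were 8.98 (Slc25a37), 8.97 (Slc35e3) and 8.88 (Slc49a4). Some of the 263 dimmer genes that match the naming rule are not carriers, among them the opposite-strand transcripts Slc6a19os, Slc7a6os and Slc36a1os. The 263 genes gave 114 higher and 149 lower with a median of -0.01. Of these 0 were called by the rank product or by limma and 12 had an unadjusted limma p under 0.05. The diets did not overlap for 1 that was higher, the lysosomal amino acid transporter Slc38a9 (0.12), and for 2 that were lower, the phosphate and urate transporter Slc17a1 (-0.23) and the inositol transporter Slc5a11 (-0.09). These are 0.38% and 0.76% of the 263 dimmer genes, against 1.06% and 1.02% of all probe sets. Their mean levels were 7.49 for Slc38a9, 8.02 for Slc17a1 and 7.23 for Slc5a11. Of the 80 further probe sets of the 74 carriers, 0 were called in either direction. An unadjusted limma p under 0.05 was found for 5, and 4 did not overlap between the diets. Over all probe sets, 1.69% had such a p with a higher and 1.95% with a lower mean. Groups not overlapping made up 1.06% (higher) and 1.02% (lower) of all probe sets. The 4 were a pair of Slc25a5 and 1 of Slc25a29, higher in PD mice, and 1 of Slc20a1, lower. Those of Slc25a29 and Slc20a1 were dim, with means of 6.81 and 6.91, below the array medians of 7.09 to 7.16. Of the 28 further probe sets with a mean of 9 or more, 12 differed in the opposite direction to the probe set used.

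Transporters and accessory proteins whose symbols do not match the naming rule were read in the same way. Some carry solutes themselves at levels above 9, such as Slco1b2 (12.60), Slco1a1 (11.53) and Mfsd2a (10.09). The 26 listed included organic anion transporting polypeptides, ATP-driven export pumps, aquaporins, pyruvate carriers, voltage-dependent anion channels and accessory subunits. Of these, 23 were measured, 10 were higher and 13 lower (median -0.01), and 1 was called. This was Mfsd2a, a lysophospholipid transporter, which fell from 10.29 ± 0.51 to 9.89 ± 0.58 (SD, n = 4 each; FDR 0.072). The diets overlapped, and the SE of the difference (0.39) was as large as the difference. It too is in the study's list of downregulated genes. The rank product called 0.258% of all probe sets lower, and 0.816% of those with a mean of 9 or more. Slco1a4, an uptake transporter of organic anions (0.28), Slco2a1, a prostaglandin transporter (-0.29), Vdac2, a channel of the outer mitochondrial membrane (0.15), and Abcb11, the bile salt export pump (-0.22), had an unadjusted limma p under 0.05 and were not called. These are 4 of the 23 genes, and over all probe sets 1.69% had such a p with a higher and 1.95% with a lower mean. For Slco1a4 and Vdac2 all PD mice lay above all CD mice, which held for 1.06% of all probe sets. Of 10 regulators of carrier genes listed, 9 were measured and 0 were called. Hnf4a, the nuclear receptor of hepatocyte identity, differed by -0.11. The differences ran from -0.26 for Cebpb, a transcription factor of the acute phase response, to 0.20 for Ppara, the nuclear receptor of fatty acid oxidation.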

How the data were processed

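RNA from the livers of 4 CD and 4 PD mice was hybridised to Affymetrix mouse genome arrays, with a separate array for each animal. The values deposited by the authors are a model-based expression index on the log2 scale, for which the labels name R 2.7.2, and no further scaling was applied. The method that normalised the arrays to each other is not given in the sources used. After removal of 64 control probe sets, 45037 were tested, of which 34945 carried 1 gene symbol, 932 several and 9160 none. A gene was read at its brightest probe set (18193 genes). Arrays have no read depth, and their number limits the precision.

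Rank products were calculated in Python 3.11.15 (numpy 2.4.6, pandas 2.3.3, scipy 1.17.1) over 16 pairs of arrays with 1000 permutations and called at an FDR under 0.1 in each direction. The limma fit (limma 3.58.1, R 4.3.3) covered all probe sets and was called at an adjusted p under 0.1. Code was tested on simulated data. Single genes were tested with an exact permutation test over 70 groupings of the mice. The labels call the mice biological replicates, and mice with equal numbers on both diets were not treated as pairs in the main tests. Substrate groups follow SLC family numbers, except that Slc8b1 was put with the mitochondrial carriers and the scaffold proteins Slc9a3r1 and Slc9a3r2 with the ungrouped genes. The carriers and gene lists were chosen with earlier results of these data known. Values per mouse are given for carriers that were called, had an unadjusted p under 0.05 or did not overlap, for the 5 largest and 5 smallest differences, for the 2 brightest genes of each group and for the 5 largest and 5 smallest SDs. Alternatives were quantile normalization, median centring, an offset of 16 ahead of the log2, removal of dim probe sets, averaging over each gene's probe sets, other level thresholds, an FDR of 0.05, the replicate block, limma with a trend or array weights, the methods' t-test and leaving out each mouse.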

Additional observations from a re-analysis of the deposited data

Results flagged for a closer look

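In 10 of 148 groups of 4 mice (74 carriers on both diets), 1 mouse lay far from the other 3, its gap to the nearest of them taking up nearly the whole range of the group. Chance flags about 1 in 20 groups. PD mouse 2 was the highest of its diet for Slc25a3, the mitochondrial phosphate carrier, at 12.98 against 12.84 to 12.86, and for Slc38a2, a neutral amino acid transporter, at 10.83 against 10.27 to 10.32. The same mouse was the lowest for Slc17a2 at 10.11 against 10.37 to 10.42. PD mouse 1 was the highest for the thiamine transporter Slc19a2 at 10.70 against 10.40 to 10.42, and for the zinc and manganese importer Slc39a8 at 9.96 against 9.58 to 9.64. PD mouse 3 was the highest for Slc22a30 at 10.87 against 10.77 to 10.79, and PD mouse 4 the lowest for the zinc importer Slc39a1 at 10.62 against 10.70 to 10.71. CD mouse 4 was the highest for the cystine transporter subunit Slc3a1 at 10.08 against 9.01 to 9.17, and the lowest for Slc25a13, the aspartate/glutamate carrier, at 10.55 against 10.65 to 10.66. CD mouse 2 was the highest for the phosphate cotransporter Slc20a1 at 9.53 against 8.93 to 8.99. None of these 10 genes was called between the diets.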

How the results depend on the processing

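The number of carriers called lower by the rank product went from 2 to 0 with a filter on dim probe sets, to 0 at an FDR under 0.05 and to 1 (Slc41a2) with each gene averaged over its probe sets, and it was 0 to 2 when 1 mouse was left out (0 without CD mouse 1 or 3 or PD mouse 4). The number called higher was 0 to 1 (Slc6a9, without CD mouse 3). Over all probe sets, the calls lower in PD were 70 with the dim filter, 55 at an FDR under 0.05 and 16 to 207 without 1 mouse (16 without CD mouse 1, 33 without CD mouse 3, 41 without CD mouse 2, 73 without CD mouse 4, 207 without PD mouse 1), and those higher 27 to 190 (27 without PD mouse 4, 39 without PD mouse 2, 40 without PD mouse 3, 190 without CD mouse 3). limma called 0 to 1 probe sets without 1 mouse (1 without PD mouse 2). Carriers with an unadjusted p under 0.05 numbered 5 by the methods' t-test and 4 to 10 without 1 mouse (4 without CD mouse 4, 5 without PD mouse 4). The median difference of all 74 carriers was -0.0232 to 0.000869 without 1 mouse, that of mitochondrial carriers 0.0160 to 0.0367 (-0.00451 at a level of 8.5 or more), and that of organic ion carriers -0.0324 to 0.0157. At a level of 10 or more the median was -0.0724 for ions, 0.0391 for vitamins and 0.0303 for choline and acetyl-CoA carriers, and averaged over probe sets it was -0.0246 for the last. The cause of these shifts was not tested. The medians of amino acid carriers (-0.0221 to 0.0369), ion carriers (-0.0275 to 0.0481), nucleotide sugar carriers (-0.0309 to 0.00219) and ungrouped genes (-0.0595 to 0.0328) also took both signs without 1 mouse. Of 442 differences of the 34 carriers given by mouse, under all settings, 398 kept their direction and side of the threshold, 13 lost the call, 1 gained it, 3 moved by more than the SD and 27 took the other sign. The last belonged to 10 carriers, none of them called. Without 1 mouse, these ranged from -0.363 to 0.0666 for Slc3a1, -0.111 to 0.0980 for Slc25a10, -0.0654 to 0.0520 for Slc66a2, -0.0316 to 0.0495 for Slc47a1, -0.0595 to 0.0338 for Slc9a3r1, -0.0370 to 0.146 for Slc37a4, -0.0376 to 0.0676 for Slc35b1, -0.0597 to 0.0285 for Slc26a1, -0.0186 to 0.0595 for Slc33a1 and -0.0345 to 0.00195 for Slc25a46. Quantile normalization gave 0.00108 for Slc47a1 and 0.000372 for Slc66a2, median centring 0.00689 and 0.00290 for the same genes, and averaging over probe sets 0.00801 for Slc9a3r1.

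With the replicate block the rank product called 109 probe sets higher and 103 lower, with 0 and 2 carriers among them, and limma called 0, with 8 carriers at an unadjusted p under 0.05. Deviations of mice with the same number correlated at -0.06 to -0.0003, which gave no sign of pairing. Mice with different numbers were not compared in this way, and a shared batch was not tested.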
